A study of Mus musculus with 6 samples.

Results

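The genes of thyroid hormone activation and reception were followed in subcutaneous white adipose tissue (scWAT), the fat depot under the skin in which beige adipocytes can form. The 6 genes, *Dio1*, *Dio2*, *Slc16a10*, *Crym*, *Thra* and *Thrb*, were taken by symbol from the 55401 genes counted in each library, and all 6 were found. RNA-seq had been made from total RNA of scWAT from 3 control and 3 knockout male mice aged 8 weeks and housed at room temperature. By the study's methods both groups carry floxed *Yap* and *Taz* alleles and the controls (YT-FF) lack Cre recombinase, although the sample labels call the control genotype WT. The knockout mice (YT-AKO) bear the label Yapfl/fl/Tazfl/fl;AdipoqCre and carry Cre driven by *Adipoq*, whose promoter works in mature adipocytes, so that other cells of the depot keep both genes. Nothing in the labels says whether the libraries came from separate litters or cages, and the p-values measure the spread between these libraries.

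Thyroid hormone leaves the gland mostly as thyroxine (T4), a precursor that enters cells through membrane transporters. Inside the cell, deiodinases remove an iodine atom from the outer ring to give T3, the form that binds the nuclear receptors. In brown fat the type 2 deiodinase is induced by noradrenaline through cyclic AMP, and the T3 made in the cell adds to the transcription of *Ucp1* and of genes of fat synthesis. Receptors sit on DNA with retinoid X receptors, together with corepressor complexes in the absence of hormone and coactivators in its presence.

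Deiodinases are selenoproteins, in which a TGA codon is read as selenocysteine in the active site instead of ending translation. These codons are shown because this small family holds both the gene with the largest difference among the 6 and genes with few counts in the same libraries. In the GENCODE vM21 annotation of GRCm38, the codon lies at chr12:90729823-90729825 on the minus strand in *Dio2* (codon 130 of 266), at chr4:107297700-107297702 on the minus strand in *Dio1* (codon 126 of 257) and at chr12:110279739-110279741 on the plus strand in *Dio3* (codon 170 of 304), the inactivating enzyme. The lines give 15 coding bases on either side, 5′ to 3′, with the selenocysteine codon in capitals.
Dio2: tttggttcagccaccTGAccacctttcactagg
Dio1: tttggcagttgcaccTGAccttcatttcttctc
Dio3: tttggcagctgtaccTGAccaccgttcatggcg
Of the 30 flanking bases, *Dio1* shared 15 and *Dio3* shared 18 with *Dio2*. The annotation also gives *Dio2* a further selenocysteine codon near its end, codon 263.

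The *Dio2* promoter is shown because *Dio2* was the called member and because its induction by cyclic AMP and the DNA partners of YAP and TAZ both have known motifs. RefSeq (GRCm38.p6) places a *Dio2* start at position 90739038 of chromosome 12, 600 bases upstream of the gene model used for counting. The 250 bases before it, chr12:90739039-90739288 on the minus strand, are printed 5′ to 3′, with capitals on the matches to the motifs searched.
Dio2 promoter: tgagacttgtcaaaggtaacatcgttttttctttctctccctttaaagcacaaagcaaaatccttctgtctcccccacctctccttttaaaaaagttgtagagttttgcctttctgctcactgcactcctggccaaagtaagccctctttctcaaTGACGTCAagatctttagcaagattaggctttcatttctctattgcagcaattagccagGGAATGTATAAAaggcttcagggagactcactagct
The first run of capitals is the cyclic AMP response element TGACGTCA, which reads the same on both strands and lies 95 to 88 bases before the start. It was present in 1.546% of 32851 RefSeq promoter windows of the same length. Next to each other follow GGAATG, the core bound by TEAD factors, which are the DNA-binding partners of YAP and TAZ (12.64% of windows), and the TATA box TATAAA (12.37%). Both strands were searched, and these matches do not overlap. The motif AGGTCA, a single arm of a nuclear receptor element,, present in 14.02% of windows, was found among the members only in 1 of 2 *Thrb* windows, 184 to 179 bases before its start. The other *Thrb* window also held GGAATG, on the opposite strand, and TATAAA. A match is a description of letters and does not show binding. RefSeq windows were at hand for *Dio1* (1), *Dio2* (1), *Slc16a10* (1) and *Thrb* (2), and the table used had none for *Thra* and *Crym*.

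The libraries held between 17740987 and 21838493 counted fragments, and 16807 genes had enough counts to be tested in edgeR. *Yap1*, the gene of YAP, was lower in the libraries labelled YT-AKO (64.3 ± 6.34 against 32.7 ± 4.53 CPM, counts scaled to a common library size, mean ± SD, n = 3; log2 fold change -0.98, SE 0.17, edgeR adjusted p = 0.0179). *Wwtr1*, the gene of TAZ, went against the label and was higher (84.1 ± 12.7 against 156 ± 21.5 CPM; log2 fold change 0.89, SE 0.18, edgeR adjusted p = 0.0220), and these libraries are therefore called "labelled YT-AKO". By immunoblot, the paper found less YAP and TAZ protein in scWAT of YT-AKO mice. Counts summed over all exons of a gene do not show whether its floxed exons were removed. All 7 adipocyte markers were detected, with summed levels of 10101 to 15123 CPM in YT-FF and 17128 to 29302 CPM in the libraries labelled YT-AKO. Of the 7, 2 were called higher, beside 12.6% of all tested genes, and their median log2 fold change was 0.40. With library totals alone the median was 0.09 and 0 were called. Of 4 markers listed for the classical brown depot, *Zic1* had 0 counts in all 6 libraries, and the list summed to 75.3 to 110 CPM in YT-FF and 79.8 to 88.3 CPM in the libraries labelled YT-AKO, with 0 of the 3 tested called. Library 2 labelled YT-AKO stood apart, with a chi-square per degree of freedom of 156 to 172 against the others of its group, where libraries 1 and 3 differed by 30.7, and with the lowest TMM factor (0.777, others 0.954 to 1.16). Library 1 labelled YT-AKO held the most transcripts of skeletal muscle, 3542 CPM summed over 10 markers, where the others ran from 139 to 503 CPM. Changes also followed transcript length across the tested genes (Spearman's rho of log2 fold change with log2 exon length -0.376, genes not being independent replicates). *Yap1* was -0.58 with a correction for length (adjusted p = 0.0450).

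*Dio2* was the member that differed between the genotypes. Its transcript rose 8.36-fold in the libraries labelled YT-AKO, while both receptor genes, the T3-binding protein *Crym* and the transporter *Slc16a10* did not pass the test, and *Dio1* was at the edge of detection throughout. Of the 5 members tested, 1 was called higher, beside 12.6% of all 16807 tested genes. None was called lower by edgeR (0 of 5, beside 9.01% of all genes), none was lower at an unadjusted p under 0.05, where 40.8% of all genes passed in either direction, and DESeq2 and limma-voom also called 0 lower. *Dio2* and *Slc16a10*, 2 of the 5, were higher in every library labelled YT-AKO than in every YT-FF library, as were 25.7% of all tested genes. The median log2 fold change of the 5 was 0.64, beside -0.02 over all tested genes. The tissue was sequenced whole, so that a change in the number of cells of a type and a change in RNA per cell cannot be told apart.

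**Figure D1:**
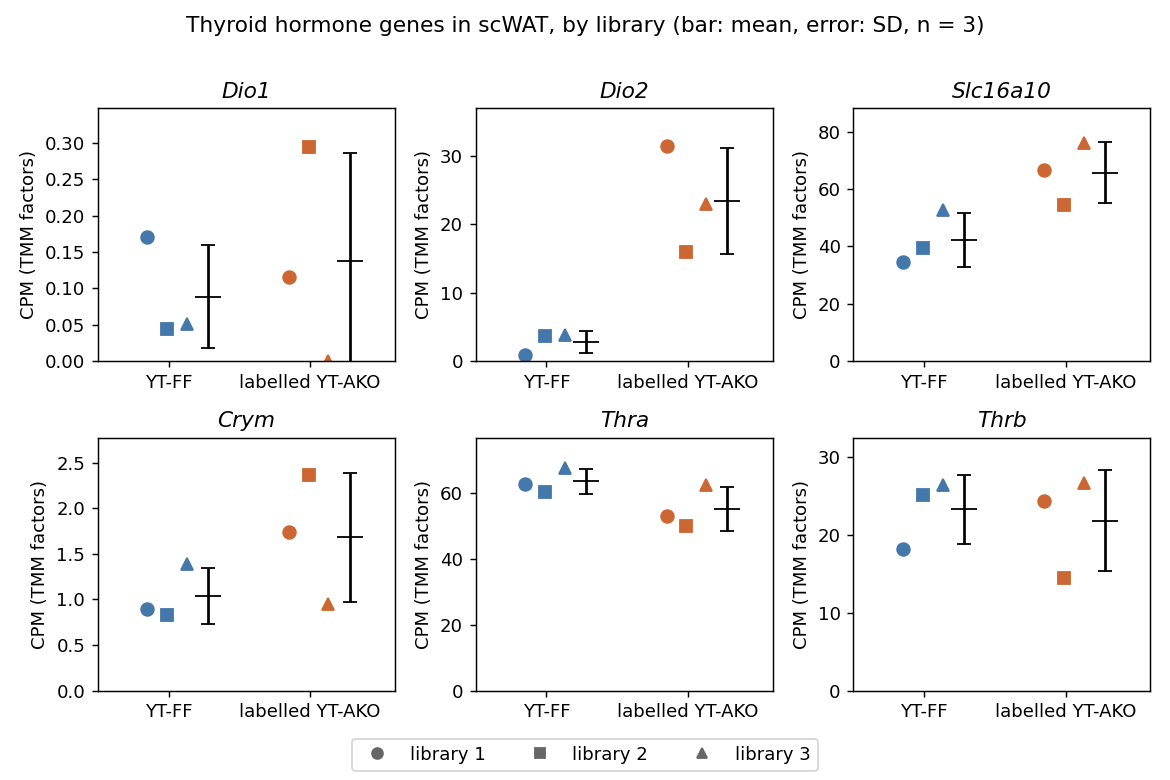
Levels of the 6 thyroid hormone genes in each library, in CPM with TMM factors on linear axes that start at 0. Points are libraries, with shapes for the library numbers, and the black bars show mean and SD (n = 3), cut off at 0 for *Dio1*. The groups are separate for *Dio2* (0.938 to 3.81 against 15.9 to 31.5 CPM) and *Slc16a10* and overlap for the other genes.

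*Dio2* encodes the type 2 deiodinase, the enzyme that makes T3 inside the cell from T4. The gene (ENSMUSG00000007682.6) spans chr12:90724552-90738438 on the minus strand with 5815 bp of exons in 2 blocks. YT-FF libraries 1, 2 and 3 held 22, 84 and 74 *Dio2* fragments, and libraries 1, 2 and 3 labelled YT-AKO held 542, 270 and 388. As normalised levels these were 0.938, 3.69 and 3.81 CPM against 31.5, 15.9 and 22.9 CPM. The groups did not overlap, and the lowest library labelled YT-AKO lay above the highest YT-FF library. Within YT-FF, library 1 was lower than the other two, and within the libraries labelled YT-AKO, library 1 was the highest and library 2 the lowest. The means were 2.81 ± 1.63 and 23.5 ± 7.81 CPM (SD, n = 3). The fitted log2 fold change was 3.06, or 8.36-fold (SE 0.52, 95% interval 1.87 to 4.26, edgeR adjusted p = 0.0177), and by unadjusted p the gene ranked 361 of 16807.

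The highest *Dio2* level was in the library with the most muscle transcripts. Leaving that library out gave a log2 fold change of 2.80 (edgeR adjusted p = 0.0254). Of the 10 muscle markers, 9 were tested and *Acta1* was called higher (log2 fold change 2.67). Without library 2 labelled YT-AKO the *Dio2* log2 fold change was 3.28 (adjusted p = 0.00287), and with a correction for transcript length it was 3.24 (adjusted p = 0.0184). The call was lost without YT-FF library 1 (2.64, adjusted p = 0.1002) and without YT-FF library 2 (3.31, adjusted p = 0.111). These fits called 0 and 2 of all tested genes. An antisense gene, *Gm26512*, overlaps 100 bp (1.72%) of the *Dio2* exons, where unstranded counting left fragments out, and had between 0 and 13 counts per library.

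*Dio1* encodes the type 1 deiodinase, which is abundant in liver, kidney and thyroid. The gene (ENSMUSG00000034785.14, chr4:107291465-107307169, minus strand) was seen with 4, 1 and 1 counts in YT-FF and with 2, 5 and 0 in those labelled YT-AKO. It did not pass the filter on low counts. Its mean was 0.0886 ± 0.0710 CPM in YT-FF and 0.137 ± 0.149 CPM in the libraries labelled YT-AKO, where 3 counts, the limit that a count of 0 allows, equal 0.128 to 0.177 CPM. No fold is given at this depth, and a difference was not detectable.

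*Slc16a10*, also called MCT10, encodes a carrier of aromatic amino acids that also moves T3 and T4 across the cell membrane. The gene (ENSMUSG00000019838.11, chr10:40033532-40142258, minus strand, 7356 bp of exons) collected 809, 900 and 1021 counts in YT-FF, against 1147, 925 and 1286 in the libraries labelled YT-AKO. The levels were 34.5, 39.6 and 52.6 CPM against 66.7, 54.6 and 76.0 CPM. The groups did not overlap, but YT-FF library 3 came close to library 2 labelled YT-AKO. The means were 42.2 ± 9.33 and 65.7 ± 10.8 CPM (n = 3), with a log2 fold change of 0.64 (SE 0.21, 95% interval 0.15 to 1.13) and an edgeR adjusted p of 0.0616, just outside the threshold of 0.05.

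This gene lay close enough to the threshold that the processing decided its call. It was called by DESeq2 (adjusted p = 0.0308), with the length correction (log2 fold change 0.93, adjusted p = 0.0290) and without library 2 labelled YT-AKO (0.76, adjusted p = 0.0161). Scaled to library totals alone, the log2 fold change was 0.34 (adjusted p = 0.308), in a fit whose median over all tested genes was -0.34 instead of -0.02. In TPM, the level per exon length as a share of all transcripts, the group means were 21.7 ± 3.90 and 22.1 ± 8.03. The value was above 0 in each fit tried and ran from 0.34 to 0.97 in the count fits.

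*Crym* encodes mu-crystallin, a cytosolic protein that binds T3 and holds it in the cell. The gene (ENSMUSG00000030905.5, chr7:120186380-120202111, minus strand) was low, with 21, 19 and 27 counts in YT-FF, against 30, 40 and 16 in the libraries labelled YT-AKO. The corresponding levels were 0.895, 0.835 and 1.39 CPM against 1.74, 2.36 and 0.946 CPM. The groups overlapped, because library 3 labelled YT-AKO lay below YT-FF library 3. The log2 fold change was 0.70 (SE 0.47, 95% interval -0.39 to 1.79, edgeR adjusted p = 0.294), so that the interval held both no difference and a rise of the size seen.

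*Thra* encodes TRα, whose main products are a hormone-binding receptor and a variant that does not bind T3. Counts per gene do not separate them. The gene (ENSMUSG00000058756.13, chr11:98740638-98769006, plus strand, 4614 bp of exons) collected 1475, 1370 and 1312 counts in YT-FF, against 914, 845 and 1058 in the libraries labelled YT-AKO. After normalisation these were 62.9, 60.2 and 67.6 CPM against 53.1, 49.8 and 62.5 CPM. The groups overlapped in CPM, since library 3 labelled YT-AKO exceeded YT-FF library 2. The means were 63.5 ± 3.72 and 55.2 ± 6.58 CPM (n = 3), with a log2 fold change of -0.20 (SE 0.15, 95% interval -0.56 to 0.15, edgeR adjusted p = 0.340). In TPM the groups did not overlap (52.2 ± 0.661 against 29.3 ± 9.28), and with library totals alone the log2 fold change was -0.52 (adjusted p = 0.0836). No count fit called *Thra*, and the size of the difference depended on the scaling.

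The end of *Thra* overlaps the antisense gene *Nr1d1*, which encodes the clock repressor REV-ERBα, over 263 bp or 5.70% of the *Thra* exons. *Nr1d1* levels were 59.9 ± 11.4 CPM in YT-FF and 38.7 ± 13.7 CPM in the libraries labelled YT-AKO (log2 fold change -0.63, edgeR adjusted p = 0.118). Fragments over both genes were left out by the counting, which leaves 4351 bp of *Thra* exons that belong to no other gene. Of 9 listed clock genes, which include *Nr1d1*, 2 were called lower, beside 9.01% of all genes. The 9 summed to 855 to 885 CPM in YT-FF and 481 to 791 CPM in the libraries labelled YT-AKO. Their median log2 fold change was -0.48, and -0.07 without library 2 labelled YT-AKO. The cause was not tested.

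*Thrb* encodes TRβ, the receptor that predominates in liver and pituitary feedback. The gene (ENSMUSG00000021779.17, chr14:17660261-18038090, plus strand, 7403 bp of exons) collected 427, 571 and 513 counts in YT-FF, against 418, 245 and 450 in the libraries labelled YT-AKO. The levels were 18.2, 25.1 and 26.4 CPM against 24.3, 14.4 and 26.6 CPM. The groups overlapped over most of their range, and library 2 labelled YT-AKO was the lowest of the 6. The means were 23.2 ± 4.41 and 21.8 ± 6.45 CPM, with a log2 fold change of -0.09 (SE 0.27, 95% interval -0.71 to 0.52, edgeR adjusted p = 0.811). The sign was not stable, since the value was 0.13 without library 2 labelled YT-AKO, 0.01 without YT-FF library 3 and 0.19 with the length correction.

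The ratio of both receptor genes within a library depends neither on library size nor on the TMM factors. It was 5.54, 3.85 and 4.10 *Thra* to 1 *Thrb* per exon length in YT-FF and 3.51, 5.53 and 3.77 in the libraries labelled YT-AKO. The groups overlapped, and *Thra* was the more abundant receptor gene in all 6 libraries. The mean log2 count ratio was 1.47 ± 0.28 and 1.38 ± 0.35 (n = 3), a difference of -0.09 (exact permutation test, two-sided, p = 0.5; the smallest p that 3 against 3 libraries allow is 0.1). The sign turned without YT-FF library 1 (0.07) and without library 1 labelled YT-AKO (0.04). The ratio was not computed with the length correction, which gave log2 fold changes of -0.10 for *Thra* and 0.19 for *Thrb*.

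**Figure D2:**
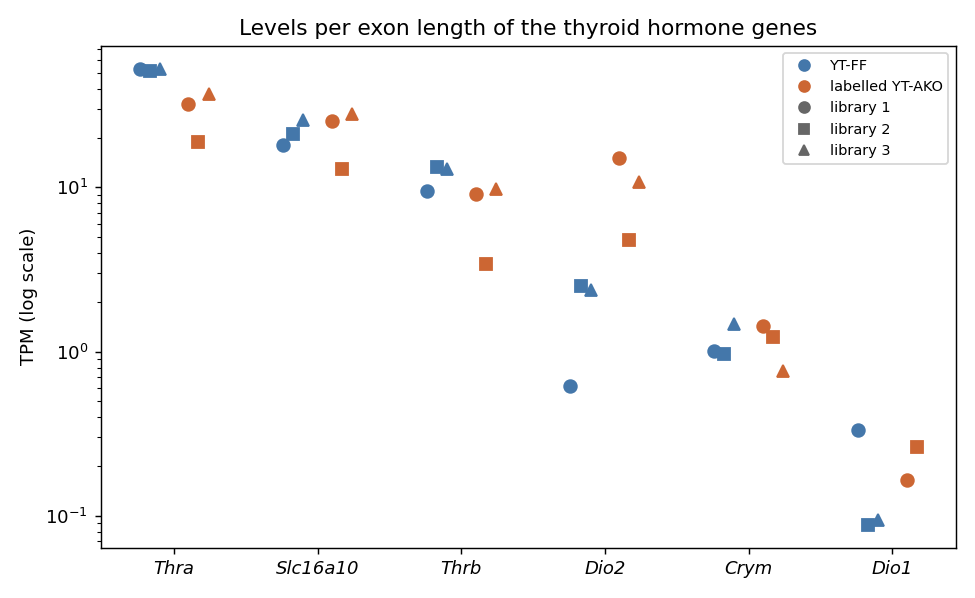
Levels of the 6 genes per exon length, in TPM on a logarithmic axis, with 1 point per library. *Thra* was highest in both groups, *Dio2* lay below *Thrb* in the YT-FF libraries and above it in those labelled YT-AKO, and the library labelled YT-AKO with 0 counts of *Dio1* is not drawn.

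Compared per length, the order of the levels in YT-FF was *Thra* (52.2 ± 0.661 TPM), *Slc16a10* (21.7 ± 3.90), *Thrb* (11.9 ± 2.14), *Dio2* (1.83 ± 1.05), *Crym* (1.16 ± 0.281) and *Dio1* (0.172 ± 0.139). Only *Dio2* and *Crym* overlapped among neighbours in that order. In the libraries labelled YT-AKO the order was *Thra* (29.3 ± 9.28 TPM), *Slc16a10* (22.1 ± 8.03), *Dio2* (10.2 ± 5.17), *Thrb* (7.45 ± 3.50), *Crym* (1.14 ± 0.345) and *Dio1* (0.142 ± 0.133). There the ranges of the first 4 overlapped from neighbour to neighbour, although each gene lay above the next in 3 of 3 libraries. The deiodinase transcript, at 0.620, 2.51 and 2.36 TPM against 9.45, 13.4 and 12.9 TPM of *Thrb* in YT-FF, thus stood at 15.1, 4.80 and 10.7 TPM against 9.15, 3.42 and 9.77 TPM of *Thrb* in the libraries labelled YT-AKO. These levels are a description, and TPM values of library 2 labelled YT-AKO were the lowest of its group for *Thra*, *Slc16a10*, *Dio2* and *Thrb*.

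The wider pathway was read from 63 further genes in 9 groups, of which 52 were tested. Of the 52, 7 were called higher, beside 12.6% of all genes, and 8 lower, beside 9.01%, and 37 were not called. Their median log2 fold change was -0.05, and 22 lay above 0 and 30 below. The calls depended on which library was left out, as did those over all tested genes. There were 0 without YT-FF library 1 or without YT-FF library 2, and 3 higher and 4 lower without YT-FF library 3. Without libraries 1, 2 and 3 labelled YT-AKO in turn there were 5 and 9, 9 and 13, and 4 and 7. The shares of all tested genes called higher and lower were 0% and 0% without YT-FF library 1. They were 0% and 0.0117% without YT-FF library 2, and 4.03% and 3.02% without YT-FF library 3. Without libraries 1, 2 and 3 labelled YT-AKO they were 12.7% and 8.24%, 16.9% and 14%, and 10.2% and 5.12%.

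**Figure D3:**
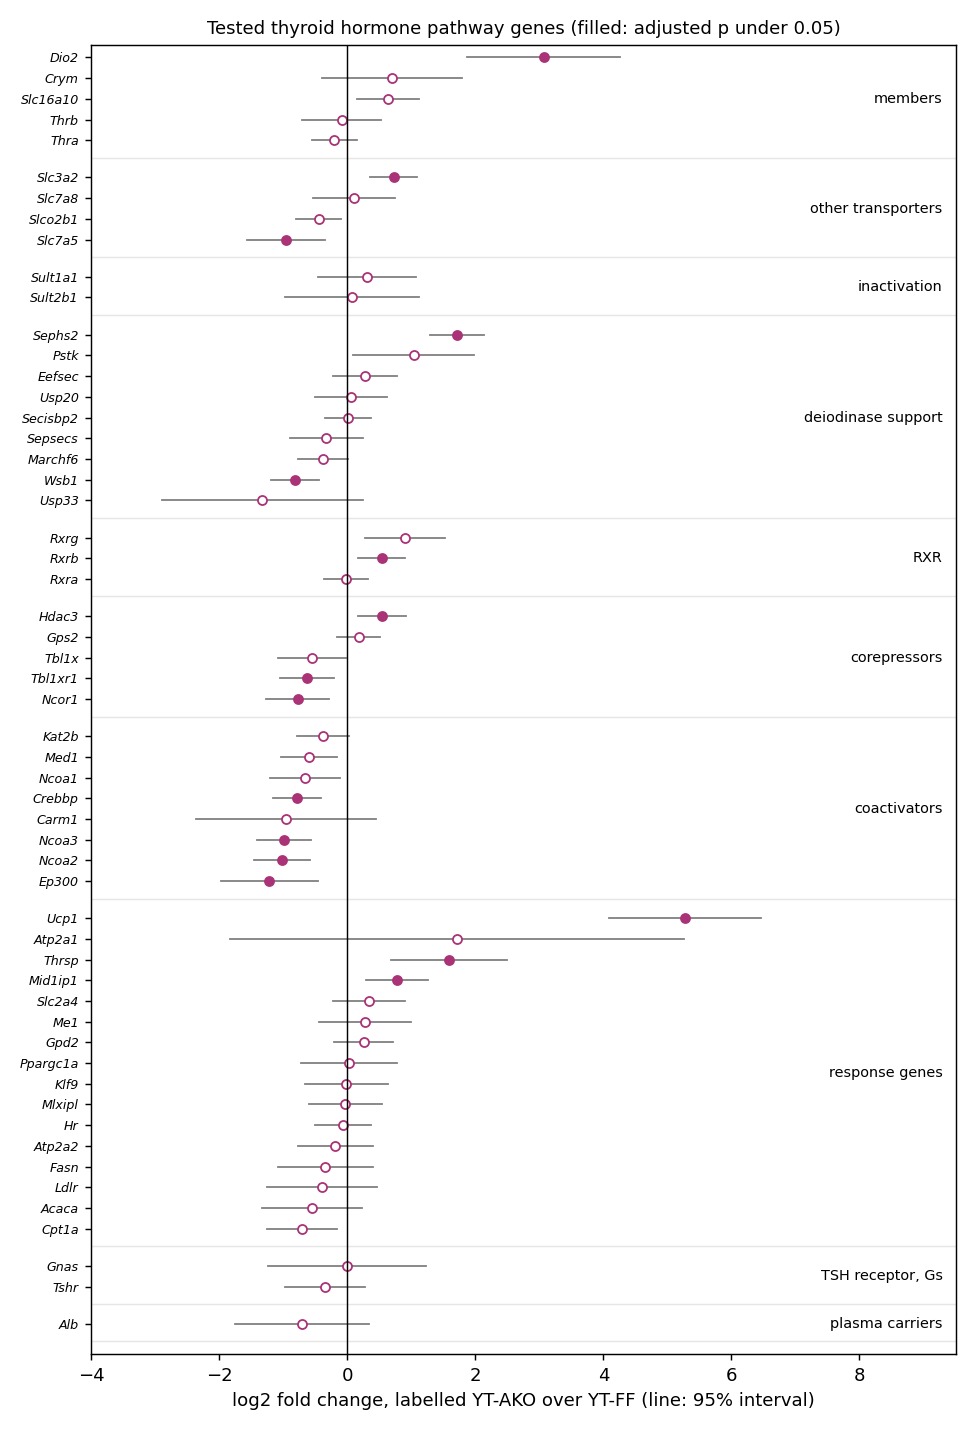
Log2 fold changes of the tested members and pathway genes, except a few that are not reported, libraries labelled YT-AKO over YT-FF, with 95% intervals; filled points have an edgeR adjusted p under 0.05. *Ucp1* (5.27), *Dio2* (3.06) and *Sephs2* (1.71) are the called genes farthest to the right, and all 8 coactivators lie left of 0.

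Among the other transporters, 5 of 10 were tested, and 1 was called higher, beside 12.6% of all genes, and 1 lower, beside 9.01%. *Slc3a2*, the heavy chain that carries the amino acid and thyroid hormone transporters LAT1 and LAT2 to the membrane, rose from 93.1 ± 13.3 to 153 ± 5.46 CPM (log2 fold change 0.72, SE 0.16, edgeR adjusted p = 0.0258), although with library totals alone it was 0.40 (adjusted p = 0.119). *Slc7a5*, the light chain of LAT1, fell from 25.7, 25.8 and 23.6 CPM in YT-FF to 17.5, 8.49 and 12.6 CPM (-0.96, SE 0.26, adjusted p = 0.0400). The partner chains therefore went opposite ways. *Slco2b1*, an organic anion carrier, had 136, 117 and 114 CPM in YT-FF and 92.7, 80.9 and 95.3 CPM in the libraries labelled YT-AKO (-0.45, adjusted p = 0.0678).

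Of the inactivating enzymes, *Dio3*, whose product removes an iodine from the inner ring, had 1, 9 and 3 fragments in YT-FF, against 5, 0 and 1 in those labelled YT-AKO, and was not tested. *Sult1a1*, a sulfotransferase of phenols, was the abundant gene of the group, with 193 ± 57.1 and 238 ± 102 CPM (log2 fold change 0.30, edgeR adjusted p = 0.520). *Sult2b1*, a sulfotransferase of sterols, had 0.915 ± 0.231 and 0.959 ± 0.275 CPM. Of the 6 listed genes 2 were tested and 0 called by edgeR, 0 at an unadjusted p under 0.05 and 0 by DESeq2 or limma-voom.

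Deiodinases need the machinery that inserts selenocysteine and are removed through ubiquitination. *Sephs2*, the selenoprotein that makes the selenium donor, had 55.2, 61.4 and 64.8 CPM in YT-FF and 174, 240 and 181 CPM in the libraries labelled YT-AKO, with no overlap. The log2 fold change was 1.71 (SE 0.18, edgeR adjusted p = 0.0122), with an antisense gene over 36.4% of its exons, where fragments were left out. *Wsb1*, an adaptor of the ubiquitin ligase that acts on the type 2 deiodinase, fell from 64.8 ± 1.13 to 36.8 ± 5.51 CPM (-0.82, SE 0.16, adjusted p = 0.0207). *Marchf6*, which encodes another ligase for it, had 133 ± 2.06 and 102 ± 16.6 CPM (-0.38, adjusted p = 0.130). All 9 genes of this group were tested, and the other 7 were not called. The calls were thus 1 higher, beside 12.6% of all genes, and 1 lower, beside 9.01%.

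Of the retinoid X receptors, the partners of TRα and TRβ on DNA, *Rxra* was the most abundant by CPM and had 160 ± 3.40 and 157 ± 14.3 CPM (log2 fold change -0.03, edgeR adjusted p = 0.904). *Rxrb* rose from 59.0 ± 4.05 to 85.4 ± 11.2 CPM (0.53, SE 0.16, adjusted p = 0.0481). *Rxrg* had 20.7 ± 5.80 and 38.6 ± 9.94 CPM (0.90, SE 0.27, adjusted p = 0.0506) and also did not overlap between the groups. Of the 3 receptors, 2 were thus higher in every library labelled YT-AKO, beside 25.7% of all tested genes, and 1 was called, beside 12.6%. The *Rxrb* call was near the threshold and was lost with library totals alone (0.19, adjusted p = 0.354), with the length correction (0.58, adjusted p = 0.0530) and without library 1 labelled YT-AKO (0.61, adjusted p = 0.0527), among other fits.

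Of the 6 corepressor genes, all tested, 1 was called higher, beside 12.6% of all genes, and 2 lower, beside 9.01%. *Hdac3*, the histone deacetylase of the complex, rose from 73.2 ± 3.43 to 107 ± 16.4 CPM (log2 fold change 0.55, edgeR adjusted p = 0.0483), a call that ended with library totals alone (0.20, adjusted p = 0.325), the length correction (0.61, adjusted p = 0.0535), upper-quartile normalization (0.50, adjusted p = 0.0563), no filter (0.54, adjusted p = 0.0769) and without library 1 labelled YT-AKO (0.62, adjusted p = 0.0556). *Ncor1*, the scaffold that binds the receptor without hormone, fell from 219 ± 21.5 to 128 ± 30.0 CPM (-0.78, adjusted p = 0.0395), and *Tbl1xr1*, a further subunit, fell from 75.7 ± 7.62 to 48.8 ± 8.85 CPM (-0.63, adjusted p = 0.0455, but 0.0537 without library 1 labelled YT-AKO). *Tbl1x*, another subunit, had -0.55 (adjusted p = 0.112) and was not called.

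All 8 coactivator genes were lower in every library labelled YT-AKO than in every YT-FF library, where 25.8% of all tested genes did the same. With edgeR, 4 of the 8 were called lower, beside 9.01% of all genes. *Ncoa2* fell from 81.9 ± 11.4 to 40.4 ± 6.64 CPM (log2 fold change -1.02, adjusted p = 0.0190), *Ncoa3* from 115 ± 20.8 to 58.0 ± 5.12 CPM (-0.99, adjusted p = 0.0190), *Ep300* from 105 ± 21.4 to 44.9 ± 17.8 CPM (-1.22, adjusted p = 0.0376) and *Crebbp* from 75.7 ± 11.2 to 43.8 ± 2.74 CPM (-0.79, adjusted p = 0.0231). The first pair encode p160 coactivators that bind receptors with hormone, and the second pair encode acetyltransferases. *Kat2b*, another acetyltransferase, had 94.0 ± 6.78 and 72.3 ± 12.5 CPM (-0.38, adjusted p = 0.142). The median of the group was -0.87, beside -0.02 over all genes. Some markers of other cells differed in the same libraries. The 5 B cell markers summed to 842 to 958 CPM in YT-FF and 523 to 790 CPM in the libraries labelled YT-AKO (3 called lower). The 5 endothelial markers summed to 557 to 577 and 401 to 510 CPM (1 called lower), and the 5 progenitor markers to 954 to 1104 and 1432 to 1465 CPM (2 called higher, 1 lower). The 5 macrophage markers summed to 981 to 1174 and 1319 to 1659 CPM (0 called). None of the tested Schwann cell and epithelial markers was called. Over all tested genes, 12.6% were called higher and 9.01% lower. The part of these cell types in the coactivator result was not tested.

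Several of these coactivator genes are long, and long genes were lower as a whole in the libraries labelled YT-AKO. With the length correction the median of the 8 was -0.38, beside 0.06 over all tested genes, and all 8 stayed below 0. In that fit 1 call was left, *Ncoa3* (-0.65, edgeR adjusted p = 0.0394), beside 4.54% of all tested genes called lower. The corepressors had a median of -0.56, which became -0.23, and *Ncor1* (-0.27, adjusted p = 0.212) and *Tbl1xr1* (-0.25, adjusted p = 0.210) lost their calls, as did *Hdac3*. *Dio2*, with more exon bases than 71.1% of the tested genes, lay against that slope, as did *Slc16a10*, longer than 81.9%.

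**Figure D4:**
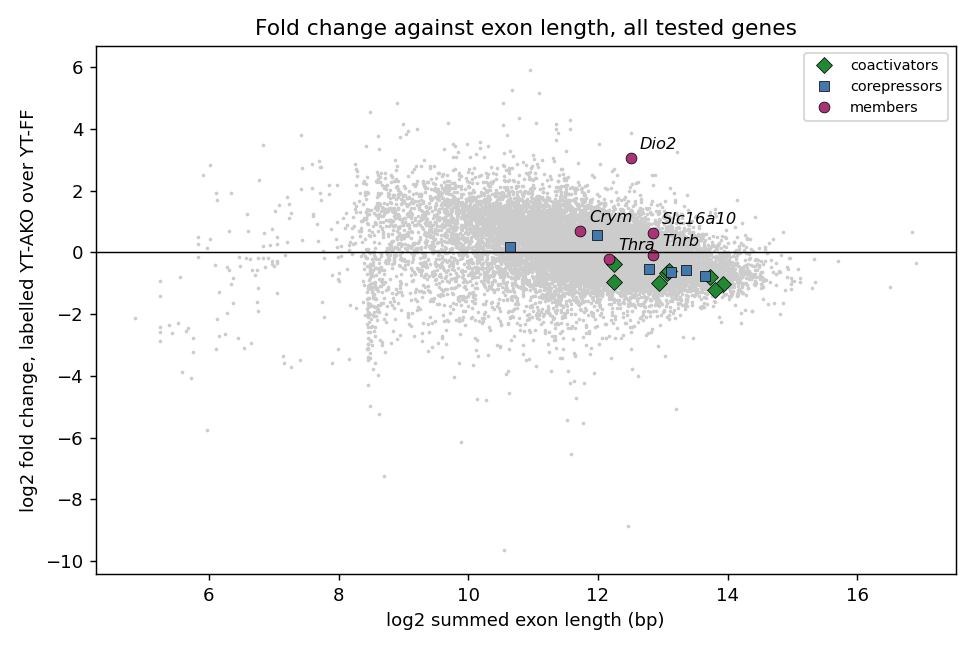
Log2 fold change (libraries labelled YT-AKO over YT-FF) of all 16807 tested genes against log2 of the summed exon length in bp, with 1 grey point per gene. The cloud slopes down with length (Spearman's rho -0.376); *Dio2* (3.06) lies above it, and all 8 coactivators lie below 0, 2 of them with 4852 and 4867 bp of exons and the others with 7895 to 15642 bp.

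Genes that T3 is known to raise in fat or other tissues made up the largest group, with 16 genes, all tested. Of these, 3 were called higher, beside 12.6% of all genes, and none lower, beside 9.01% (0 by edgeR and limma-voom, 1 by DESeq2, 1 at an unadjusted p under 0.05). *Ucp1*, the uncoupling protein of brown and beige mitochondria, had 6.78, 3.69 and 9.84 CPM in YT-FF and 144, 395 and 243 CPM in the libraries labelled YT-AKO (log2 fold change 5.27, SE 0.51, edgeR adjusted p = 0.00782). The groups were far apart, but the order of the libraries differed from that of *Dio2*, since *Ucp1* was highest and *Dio2* lowest in library 2 labelled YT-AKO. *Thrsp*, a factor of fat synthesis known as Spot 14, rose from 1208 ± 199 to 3625 ± 1817 CPM (1.59, SE 0.39, adjusted p = 0.0312). *Mid1ip1*, its relative, rose from 39.2 ± 10.2 to 66.9 ± 7.69 CPM (0.77, SE 0.21, adjusted p = 0.0396), a call that was lost with library totals alone (0.43), with the length correction (0.48) and without library 1 labelled YT-AKO (0.80, adjusted p = 0.0597), and an antisense gene overlaps 25.5% of its exons.

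The other 13 response genes were not called. Among them *Fasn*, the fatty acid synthase, was the most abundant by CPM with 8038 ± 1281 and 6326 ± 2505 CPM (log2 fold change -0.35, edgeR adjusted p = 0.441), and *Acaca*, acetyl-CoA carboxylase, had 991 ± 183 and 676 ± 325 CPM (-0.55, adjusted p = 0.249). Of the 16 genes, 8 lay above 0 and 8 below, with a median of 0.0034. This split moved with the length correction (14 above and 2 below, median 0.23) and without library 2 labelled YT-AKO (12 and 4, median 0.27). The medians over all tested genes in these fits were 0.06 and -0.02.

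The receptor of thyrotropin, *Tshr*, which fat cells carry, had 31.0, 38.1 and 54.5 CPM in YT-FF and 23.6, 40.2 and 33.3 CPM in the libraries labelled YT-AKO (log2 fold change -0.35, edgeR adjusted p = 0.354). *Gnas*, which encodes the G protein subunit that links such receptors to cyclic AMP, had 75.9 ± 8.26 and 75.5 ± 49.0 CPM, with 19.2 CPM in library 2 labelled YT-AKO against 99.6 and 108 CPM in the others of that group. Without that library, *Gnas* was called higher, beside 16.9% of all tested genes in that fit. Of the plasma carriers of the hormone, *Ttr* and *Serpina7* had 0 counts in all libraries, and *Alb* had 21.0 ± 15.1 and 12.8 ± 1.95 CPM (-0.71, adjusted p = 0.270), a value that YT-FF library 3 with 38.4 CPM decided (0.07 without it).

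For each tested member, the genes most like it were those with the highest Pearson correlation of log2 CPM over the 6 libraries, among 10336 tested genes with a mean of at least 10 CPM. For *Dio2* these were *Mkks* (r = 0.99; 10.3 and 18.1 CPM), *Adra1a*, the alpha-1A adrenergic receptor (r = 0.99; 13.0 and 29.4 CPM), and *Srp68* (r = 0.99; 56.6 and 68.8 CPM). *Adra1a* rose by a log2 fold change of 1.18 (edgeR adjusted p = 0.0183) and *Mkks* by 0.82 (adjusted p = 0.0320), while *Srp68* was not called (0.28, adjusted p = 0.155). The genes likest to *Slc16a10* were *Spats2*, *Rnf11* and *Crtap*, those likest to *Thra* were *Plscr4*, *Ctdsp2* and *Zfp282*, those likest to *Thrb* were *Zfand2a*, *Vps41* and *Ebag9*, and those likest to *Crym* were *Kank3*, *Myl12a* and *Bnip2*. With 6 points that share depth and group, 95 genes reached r over 0.95 with *Dio2* and 22 to 109 did so with the others. Between the members, r ran from -0.72 for *Thra* and *Crym* to 0.91 for *Dio2* and *Slc16a10*, given as a description. It was 0.61 for *Thra* and *Thrb* and -0.58 for *Dio2* and *Thra*.

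**Figure D5:**
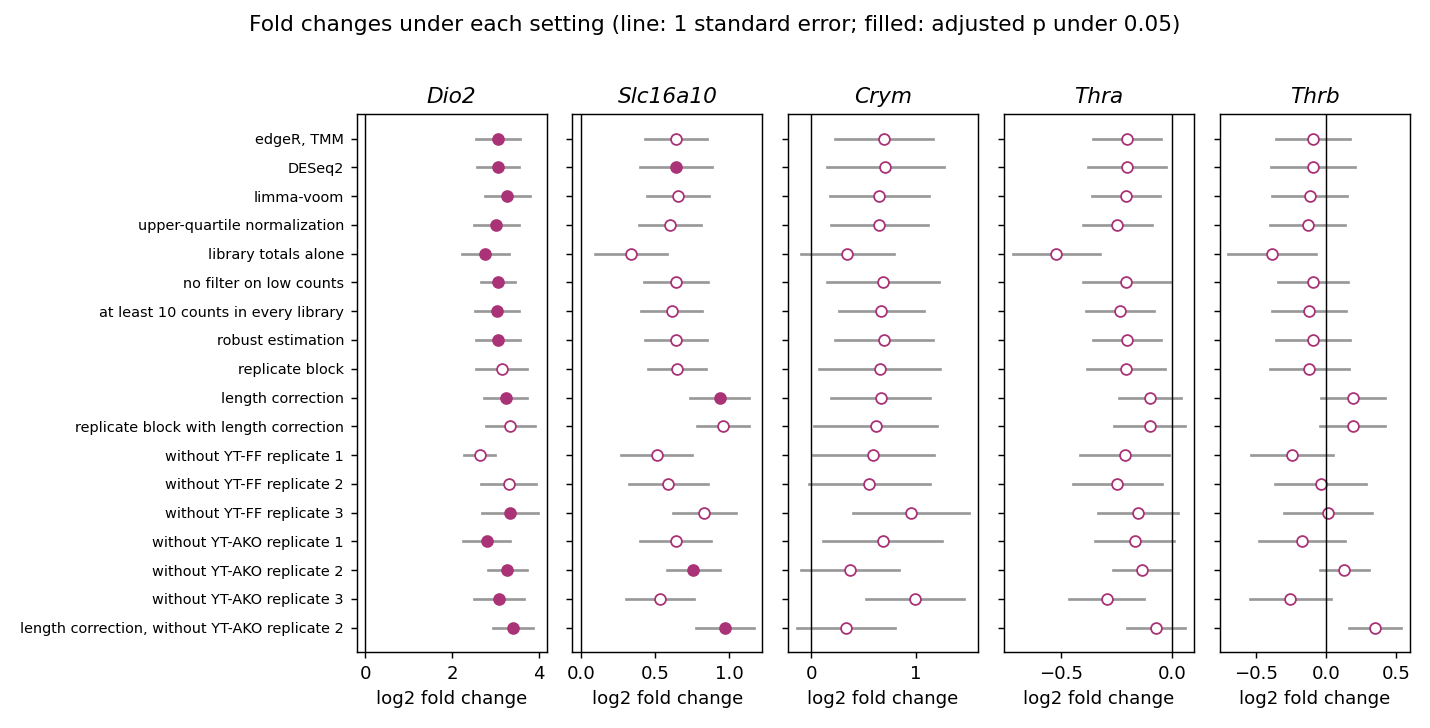
Log2 fold changes of the 5 tested members under each processing setting, libraries labelled YT-AKO over YT-FF, with lines of 1 standard error and filled points for an adjusted p under 0.05. *Dio2* lay between 2.64 and 3.40 in every fit drawn, *Slc16a10* between 0.34 and 0.97, and *Thrb* on both sides of 0.

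Across the count fits tried, the *Dio2* log2 fold change ran from 2.64 to 3.40, and 13 of 17 alternatives kept its call. The log2 ratio of its group means in TPM was 2.48. *Thra* ran from -0.52 to -0.07 and was called in 0 of 17, at adjusted p-values of 0.0836 to 0.701. *Crym* ran from 0.33 to 0.99, also with 0 calls. *Slc16a10* was called in 4 of 17, and *Thrb* changed sign in 5 of 17 without a call. Among the 17, the fits without YT-FF library 1 and without YT-FF library 2 called 0 and 2 of all tested genes.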

How the data were processed

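Counts of 3 YT-FF and 3 YT-AKO scWAT libraries were used, grouped by the genotype labels. The deposited files hold raw, unnormalized counts. The authors mapped paired-end reads to mm10 with HISAT2 and counted exons of GENCODE vM25 with featureCounts v2.0.1, unstranded, without fragments that mapped to several places or genes, per the file headers. Such genes lose counts. GENCODE vM21 gave symbols for 55141 of 55401 genes and the coordinates of the selenocysteine codons. The printed gene coordinates are those of the count files.

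In R 4.3.3, genes passing filterByExpr (minimum count 10, minimum total 15) were tested with edgeR 4.0.16 (TMM, quasi-likelihood, Benjamini-Hochberg, adjusted p under 0.05). Limits of 3 counts cover counting error only, as fragments carry no molecular identifiers. DESeq2 1.42.0, limma-voom (limma 3.58.1), other normalizations and filters, robust estimation, a replicate block, a length correction (spline, 6 degrees of freedom) and each library left out were alternatives. The length correction without YT-AKO replicate 2 was added after seeing the data. The tests were checked on simulated counts.

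Members and gene lists were chosen with earlier results of these data known. Named genes are the members, the 3 most abundant and all called genes (up to 6) of each pathway list, genes overlapping members, and the 3 likest genes per member. Genes named outside this rule (*Yap1*, *Wwtr1*, *Acta1*, *Zic1*) serve as checks. A few genes within this rule are not reported.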

Additional observations from a re-analysis of the deposited data

How the results depend on the processing

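With DESeq2, 2 members were called higher (*Slc16a10* joined at 0.64) and 13 pathway genes lower. That fit called 18% of all tested genes higher and 14.2% lower, against 12.6% and 9.01% with edgeR. Library totals alone gave 3 pathway genes higher and 13 lower, and *Wwtr1* 0.59 (adjusted p = 0.0798); over all genes the calls were 1137 higher and 2828 lower (28.7% higher, against 58.3% of 2121 and 1515). The length correction gave 2 members higher, 4 pathway genes higher and 3 lower, *Thrb* 0.19 and *Slc16a10* 0.93 (all genes 1692 and 763, 68.9% higher); without YT-AKO replicate 2 as well, 2 members, 11 pathway genes higher and 5 lower, *Thrb* 0.35 and *Slc16a10* 0.97. In TPM, the log2 ratio of group means was 2.48 for *Dio2*, -0.83 for *Thra*, -0.68 for *Thrb*, 0.0295 for *Slc16a10* and -0.0226 for *Crym*, against 3.06, -0.20, -0.09, 0.64 and 0.69 in CPM. The causes were not tested.

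With 1 library left out, members called higher ran from 0 to 2, pathway genes higher from 0 to 9 and lower from 0 to 13, *Dio2* from 2.64 to 3.34, *Slc16a10* from 0.51 to 0.83, *Thrb* from -0.26 to 0.13, *Yap1* from -1.08 to -0.90, *Wwtr1* from 0.81 to 1.03 and the log2 receptor ratio from -0.29 to 0.0741. Over all genes, the calls were 0 and 0 without YT-FF replicate 1, 0 and 2 without YT-FF replicate 2, 704 and 528 without YT-FF replicate 3, 2226 and 1444 without YT-AKO replicate 1, 2925 and 2424 without YT-AKO replicate 2, and 1784 and 895 without YT-AKO replicate 3. Without YT-FF replicate 1, *Yap1* and *Wwtr1* had adjusted p-values of 0.110 and 0.1199.

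Deviations of same-numbered libraries from their group means correlated at 0.11, -0.11 and -0.09, and not every library correlated best with its own number. With 3 libraries per group these values constrain each other and cannot decide whether the replicate numbers pair the libraries. With the replicate number as a block, 0 members, 1 pathway gene higher and 0 lower were called (all genes 24 and 9), with *Dio2* 3.15 (adjusted p = 0.0589), *Yap1* -0.98 and *Wwtr1* 0.89. The receptor ratio with the pairing was -0.09 (exact sign-flip p = 0.75). The block with the length correction called 0 members and 2 pathway genes higher and 0 lower (all genes 59 and 22), with *Dio2* 3.35 (adjusted p = 0.0563), *Thrb* 0.19, *Yap1* -0.57 and *Wwtr1* 1.02. No member was called lower in any of the 17 alternatives. Some of these fits called few of all tested genes lower and could hardly have called a member. Their counts were 0 without YT-FF replicate 1, 2 without YT-FF replicate 2, 9 with the block and 22 with the block and length correction. Depth limits *Dio1*, *Dio3* and *Crym*, whose counts per library did not exceed 40.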
